A study of Mus musculus with 4 samples.

Results

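The nuclear-encoded respiratory chain genes are the subunits of the complexes of oxidative phosphorylation that are made from chromosomal rather than mitochondrial DNA. Members were taken by symbol from the 32285 features of the deposited tables: Nduf with a letter a, b, c, s or v and a number, Sdha to Sdhd, and every symbol that starts with Uqcr, Cox4 to Cox8 or Atp5, with pseudogenes marked -ps left out. This gave 84 genes. Of these, 35 belong to complex I, 4 to complex II, 8 to complex III, 20 to complex IV and 17 to complex V. Ndufa4 and Ndufa4l2 were counted with complex IV, where Ndufa4 protein is found. In at least 1 marker-gated cell class of 50 or more cells, 78 of the 84 reached 20 CPM (UMIs per 1e6 UMIs of the class).

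Complex I (NADH dehydrogenase) and complex II (succinate dehydrogenase, which is also an enzyme of the citric acid cycle) pass electrons to ubiquinone, complex III passes them to cytochrome c, and complex IV (cytochrome c oxidase) passes them to oxygen. The proton gradient built by complexes I, III and IV drives complex V, the ATP synthase. Several complex IV subunits exist as paired isoforms that differ between tissues. Macrophages and activated T cells are known to shift between respiration and glycolysis with their activation state.

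The 4 libraries came from pools of tumor cells and were read by droplet 3' RNA sequencing with unique molecular identifiers (UMIs): WT and Lrrc25-/- mice, each bearing either B16F10 melanoma, harvested at day 14, or MC38 colon carcinoma, harvested at day 26. Lrrc25-/- hosts lack Lrrc25, a leucine-rich repeat gene of myeloid cells, and no group received a treatment. The labels do not give the animals' age, sex or strain, or the cells in which the deletion acts. Each library pooled 100 mm3 of tumor from each of 3 mice, and cells bound by CD45 beads were mixed with the unsorted suspension at 5 to 1, so there is 1 library per genotype and tumor model, and cell shares are set by the mixing.

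The libraries held 105338548 to 138841749 UMIs in 10490 to 18545 barcodes, and 96 to 247 barcode sequences were shared between any 2 libraries. Lrrc25 was read at 165 and 86.9 CPM in WT monocytes and macrophages of B16F10 and MC38 tumors, against 4.80 and 2.07 CPM in the Lrrc25-/- libraries. Cells were assigned to a class when the largest share of markers detected was at least 2 times that of the next list; 24.2% to 34.9% of kept cells met no class. Monocytes and macrophages (2970, 4082, 11198 and 10738 cells in WT B16F10, Lrrc25-/- B16F10, WT MC38 and Lrrc25-/- MC38), CD8 T cells (174, 597, 610 and 876), T cells not resolved further (139, 442, 173 and 363) and neutrophils (50, 316, 150 and 227) had at least 50 cells in every library, and every marker of their own list reached 20 CPM in all 4 libraries. Melanoma cells were measured in B16F10 only. Plasmacytoid dendritic cells (pDC) had 51 and 87 cells in the B16F10 libraries but 4 and 13 in the MC38 libraries. In the tables of both MC38 libraries 40 symbols are written unlike in the B16F10 tables, where they repeat, so the tables of the models were not written alike; no member symbol is among the repeated ones.

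Among the 6 classes plotted by library, melanoma cells gave the most of their RNA to the member genes, and neutrophils the least. The summed members took 5.46% of UMIs in melanoma cells of the WT library and 5.52% in the Lrrc25-/- library. In monocytes and macrophages they took 3.10% and 2.72% in WT and Lrrc25-/- B16F10 tumors, and 1.75% and 1.87% in MC38 tumors. In CD8 T cells the shares were 2.93%, 2.81%, 1.82% and 1.80% in the same order of libraries. Neutrophils had 1.35%, 1.18%, 0.519% and 0.687%; under highest-score naming of cells the 2 MC38 values changed order, at 1.32% and 1.12%. In each of the classes measured in all 4 libraries, both B16F10 libraries lay above both MC38 libraries.

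**Figure D1:**
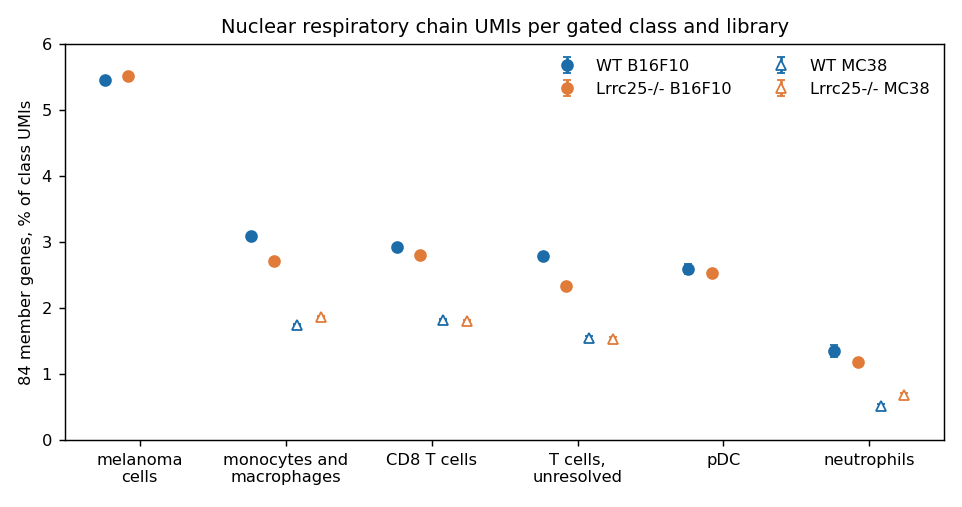
UMIs of the 84 member genes as a percent of all UMIs of a gated class (vertical axis), by class, for 4 libraries; filled circles are B16F10, open triangles MC38, blue WT and orange Lrrc25-/-, and bars are 95% exact binomial intervals that cover counting error only. Melanoma cells sit at 5.46% and 5.52%, and both MC38 libraries lie below both B16F10 libraries in monocytes and macrophages, CD8 T cells, unresolved T cells and neutrophils.

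Members of complex II were read at the lowest levels and those of complexes IV and V at the highest. For WT B16F10 monocytes and macrophages the median member level was 203 CPM for complex I, 158 for complex II, 452 for complex III, 567 for complex IV and 530 for complex V. In Lrrc25-/- B16F10 the medians were 174, 126, 393, 475 and 486 CPM. In WT MC38 they were 120, 77.1, 249, 267 and 291 CPM, and in Lrrc25-/- MC38 they were 124, 81.1, 243, 306 and 306 CPM. In WT melanoma cells they were 398, 230, 819, 855 and 875 CPM. That order, with complex II lowest, complex I next and complex III between them and complexes IV and V, held in each of these libraries.

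Promoter windows of the members were searched for short motifs, each of which was found in a minority of the matched members. RefSeq windows on GRCm38.p6, from 250 bases before to 50 after the start, were found by symbol for 67 of the 84 members. Both strands were searched, overlapping motifs were each counted, and the motifs and windows were chosen with results of these data known. NRF1 (nuclear respiratory factor 1, a regulator of respiratory genes), searched as GCGCA and GCGC with 1 free base between them, was present in 25.4% of the matched members and in 5.19% of all 27025 genes of the table. The ETS motif bound by GABPA (nuclear respiratory factor 2), CCGGAAG, was present in 25.4% of members against 9.93%. YY1, AAGATGGC, was present in 13.4% against 3.19%, and the estrogen-related receptor motif, TCAAGGTCA, in 2.99% against 0.466%. The GC box GGGCGG (40.3% against 38.2%) and the core of the hypoxia element, ACGTG (23.9% against 21.8%), were about as common in members as in all genes. A match is a description of the letters and no evidence of binding.

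Windows of 4 members described below are shown 5' to 3' on the gene's strand, with matches to the 6 motifs in capitals: Ndufa4, with the largest fall between tumor models in monocytes and macrophages (chr6:11907401-11907700, minus strand), Sdha, among the members with the smallest falls (chr13:74350191-74350490, minus strand), Cox5a, which differed between macrophage states (chr9:57520982-57521281, plus strand), and Cox6a1, whose partner isoform marked pDC (chr5:115348909-115349208, minus strand).
Ndufa4: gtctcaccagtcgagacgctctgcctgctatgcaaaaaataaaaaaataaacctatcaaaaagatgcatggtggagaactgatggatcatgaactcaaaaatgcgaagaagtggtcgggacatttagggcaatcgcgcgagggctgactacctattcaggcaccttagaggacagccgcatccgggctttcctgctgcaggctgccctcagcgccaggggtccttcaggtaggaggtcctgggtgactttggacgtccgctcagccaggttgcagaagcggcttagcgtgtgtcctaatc
Sdha: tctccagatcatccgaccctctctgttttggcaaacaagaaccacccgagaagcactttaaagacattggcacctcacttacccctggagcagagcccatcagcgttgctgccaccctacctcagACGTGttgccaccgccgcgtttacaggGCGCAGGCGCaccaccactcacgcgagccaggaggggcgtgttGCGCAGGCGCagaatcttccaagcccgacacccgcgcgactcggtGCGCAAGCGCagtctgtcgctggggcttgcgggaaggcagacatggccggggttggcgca
Cox5a: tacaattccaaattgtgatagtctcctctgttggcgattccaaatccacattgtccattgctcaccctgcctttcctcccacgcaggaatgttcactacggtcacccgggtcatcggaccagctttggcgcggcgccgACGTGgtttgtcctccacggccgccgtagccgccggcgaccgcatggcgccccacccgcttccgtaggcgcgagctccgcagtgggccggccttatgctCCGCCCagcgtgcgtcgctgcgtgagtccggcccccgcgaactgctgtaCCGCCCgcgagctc
Cox6a1: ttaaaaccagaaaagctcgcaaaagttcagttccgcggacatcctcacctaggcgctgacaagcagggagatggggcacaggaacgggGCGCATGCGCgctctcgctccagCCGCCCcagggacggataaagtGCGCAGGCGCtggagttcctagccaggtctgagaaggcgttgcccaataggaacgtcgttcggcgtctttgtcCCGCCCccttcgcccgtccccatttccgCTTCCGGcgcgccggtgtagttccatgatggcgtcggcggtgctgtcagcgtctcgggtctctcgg
The Ndufa4 window held none of the 6 motifs. The Sdha window held 3 NRF1 matches, which start 98, 55 and 10 bases before the start site, and the Cox6a1 window held 2 NRF1 matches, an ETS match and 2 GC boxes.

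Between tumor models, nearly all members were lower in MC38 than in B16F10 libraries. In monocytes and macrophages 78 of the 80 members tested fell and none rose, by edgeR's quasi-likelihood test with Benjamini-Hochberg adjustment over all 15239 genes. Over all those genes 61.5% were called, 29.7% lower and 31.9% higher, and their median log2 fold was 0.06, against -1.15 for the members tested. The remaining members, Ndufa13, Cox7b2, Cox8b and Cox8c, were too low to test. The complexes differed little in their medians: -1.20 for complex I, -1.09 for complex II, -1.14 for complex III, -1.15 for complex IV and -1.13 for complex V on the log2 scale. Tumor line, day of harvest and library cannot be told apart in this comparison, and the fit has 1 residual degree of freedom.

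Ndufa4, a subunit of cytochrome c oxidase, had the largest fall. It was read at 663 and 496 CPM in WT and Lrrc25-/- B16F10 monocytes and macrophages, and at 91.6 and 89.8 CPM in the MC38 libraries. The B16F10 and MC38 values did not overlap, and the log2 fold was -3.12 (SE 0.23; edgeR adjusted p = 2.9e-05). Ndufs8, an iron-sulfur subunit of complex I, was at 187, 125, 45.5 and 53.9 CPM in WT B16F10, Lrrc25-/- B16F10, WT MC38 and Lrrc25-/- MC38, a fall of 2.09 on the log2 scale. The iron-sulfur subunit of complex II, Sdhb, was at 233, 210, 124 and 161 CPM in the same order. Cox4i1, the common regulatory isoform of complex IV subunit 4, was at 1393, 1137, 530 and 614 CPM, and the catalytic beta subunit of ATP synthase, Atp5b, at 618, 553, 282 and 306 CPM. For each of these genes both B16F10 libraries were above both MC38 libraries.

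Some members moved little. Ndufs1, the largest subunit of complex I, was at 26.1, 24.8, 33.5 and 32.0 CPM in the same order, with a log2 fold of -0.10 (SE 0.15; edgeR adjusted p = 0.59). Sdha, the flavoprotein of complex II, was at 76.1, 73.4, 69.2 and 64.3 CPM and fell by 0.63. Cox7a2l, a factor in supercomplex formation, did not pass the test, at 236, 215, 204 and 261 CPM. Of these, Ndufs1 was higher in both MC38 libraries in CPM, although its fitted fold is below 0.

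The T cell and neutrophil fits gave the same direction. Of 76 members tested in CD8 T cells 72 fell, where 57.1% of all genes were called and 28.6% fell, and Ndufa4 was at 637, 560, 174 and 188 CPM. In unresolved T cells 70 of 75 fell (51.7% of all genes called, 25.8% lower), and in neutrophils 38 of 60 (25.4% called, 13.8% lower). Ndufs1 and Sdha did not pass in either T cell class. In CD8 T cells Ndufs1 was at 21.9, 29.1, 40.1 and 37.2 CPM, with a log2 fold of 0.11. The neutrophil count rests on scaling: it was 12 of 60 with library totals in place of the trimmed mean of M-values (TMM), where 5.86% of all genes were called lower, and 13 with DESeq2, where 6.61% were.

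The size of the fall moved with scaling. With library totals the members' median log2 fold in monocytes and macrophages moved from -1.15 to -0.68, and that of all genes from 0.06 to 0.52. There 53 members were called lower in place of 78, none higher, while calls over all genes moved to 17.1% lower and 44.6% higher. The members' median moved from -1.16 to -0.70 in CD8 T cells and from -1.59 to -1.08 in neutrophils. In CPM, with no scaling beyond library totals, both MC38 libraries lay below both B16F10 libraries for 72 of 76 members at 20 CPM or more in monocytes and macrophages, where 33.6% of all such genes did so. The corresponding counts were 69 of 75 in CD8 T cells (28.9% of all genes), 67 of 75 in unresolved T cells (23.7%) and 64 of 76 in neutrophils (19.3%). Members and all other genes entered at 20 CPM in any 1 library, with no floor on UMIs, so a gene could enter through the model where it was high. In WT B16F10 neutrophils 23 UMIs of Lrrc25 made 353 CPM, so 20 CPM there is very few UMIs. The filter on low counts kept 60 members for the neutrophil test.

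**Figure D2:**
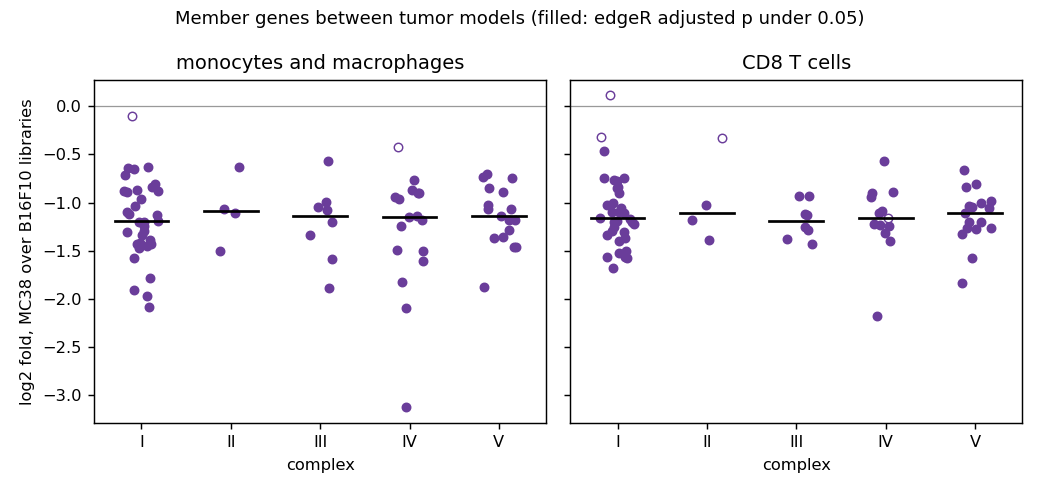
Log2 fold of MC38 over B16F10 libraries (vertical axis) for each member tested, by complex, in monocytes and macrophages (left) and CD8 T cells (right); filled points passed edgeR's test, open points did not, and black lines are medians. Ndufa4 is the lowest point, at -3.12 in monocytes and macrophages, and the medians of the complexes there lie between -1.20 and -1.09.

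Mitochondrial DNA-encoded subunits went the other way in T cells and in monocytes and macrophages. In the latter 12 of the 13 rose in MC38 libraries and none fell, and mt-Nd6, the complex I subunit encoded on the other strand, was at 1.02, 1.26, 39.3 and 27.3 CPM. Their summed share of UMIs was 0.487%, 0.608%, 2.81% and 2.65% in monocytes and macrophages, so nuclear members outnumbered them by 6.35 and 4.47 UMIs to 1 in B16F10 and were at 0.623 and 0.707 to 1 in MC38. In CD8 T cells 11 of 13 rose, and in neutrophils 4 of 12 tested fell and none rose. Ribosomal protein genes took 20.2%, 18.2%, 14.6% and 15.3% of UMIs in monocytes and macrophages. With the mitochondrial DNA-encoded and ribosomal protein genes left out before normalization, 78 of 80 members were called lower in MC38 libraries, and the members' median log2 fold was -1.15, as with those genes included.

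Other nuclear genes of the pathway were lower as well. Among monocytes and macrophages 6 of 7 tested subunits and carriers outside the symbol rule fell, among them Cycs, which encodes the electron carrier cytochrome c (log2 fold -1.50), and Cyc1, the cytochrome c1 subunit of complex III (-1.62). Of 44 assembly factors, 31 fell and 2 rose. The citric acid cycle list had 8 of 13 fall, led by Fh1, fumarate hydratase (-1.90), and none rise. Regulators of mitochondrial biogenesis had 3 of 13 fall and 3 rise. Nrf1 rose by 1.01 on the log2 scale, while Ppargc1a, the coactivator PGC-1 alpha, fell. The glycolysis and hypoxia list had 10 of 16 fall and 2 rise, and the cell cycle list 10 of 16 fall and 3 rise. In CD8 T cells 15 of 16 genes of the glycolysis and hypoxia list fell (median log2 fold -1.37). In unresolved T cells 13 of 16 fell (-1.38) and in neutrophils 8 of 14 (-1.53), and none rose in these classes. The members' medians there were -1.16, -1.27 and -1.59. Ppargc1a was at 4.40, 5.83, 0.0199 and 0.0658 CPM in monocytes and macrophages, from 103, 203, 1 and 4 UMIs, and at 115 and 274 CPM in the melanoma cells.

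Melanoma RNA was present in the B16F10 immune classes. The 8 melanoma markers summed to 377 and 265 CPM in WT and Lrrc25-/- B16F10 monocytes and macrophages, with 5 of 8 at 20 CPM or more and none at 0, against 12500 and 15876 CPM in melanoma cells. In MC38 monocytes and macrophages they summed to 86.8 and 59.9 CPM, with 1 at 20 CPM or more and 4 at 0. The sums were 381, 296, 2.08 and 3.27 CPM in CD8 T cells and 921, 685, 79.4 and 44.7 CPM in neutrophils of the same 4 libraries. The part of this RNA in the levels of the members and of Ppargc1a was not tested.

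The genotype comparison gave no member past the test. With both tumor models in 1 fit of monocytes and macrophages, edgeR called 0 of 80 members, where 0.00656% of all genes were called. DESeq2 called 1 member. Of the 80, 2 (Ndufa4l2 and Cox4i2) had an unadjusted edgeR p under 0.05, as had 544 of all 15239 genes. Of 76 members in CD8 T cells 0 were called by edgeR (0.67% of all genes) and 0 had an unadjusted p under 0.05 (837 of all 10440 genes). In neutrophils 0 of 60 were called (0.188% of all genes), with 0 at an unadjusted p under 0.05 (80 of all 3191 genes). In unresolved T cells 0 of 75 were called (0.942%), with 6 under 0.05 (699 of all 7747 genes). In those T cells 6 of the 16 cell cycle genes fell. DESeq2 called no member in these 3 classes. On simulated counts for the monocyte and macrophage fit, with 200 changed genes planted among 15239, 86% of 4-fold and 53% of 2-fold changes were called. The real fit called 0.00656% of all genes, so its adjusted threshold was harder to pass and these rates do not carry over to it.

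Within each tumor model, where 1 library stands for each genotype and no test is possible, the members of monocytes and macrophages leaned in opposite directions. In B16F10, 69 of the 76 members measured (20 CPM in either library and 50 summed UMIs) were lower in Lrrc25-/-, with a median log2 fold of -0.20, against 0.02 for all 4690 genes measured. In MC38, 58 of 75 were higher in Lrrc25-/-, with a median of 0.09, against -0.02 for all 5833 genes. The lean was not particular to the members: ribosomal protein genes of the same cells had medians of -0.19 in B16F10 and 0.05 in MC38. Mitochondrial DNA-encoded subunits went the other way, at 0.33 and -0.41. Their shift was not particular to this class. In B16F10 their median was 1.24 in melanoma cells, 0.97 in pDC, 0.86 in unresolved T cells and 0.73 in CD8 T cells. It was -1.10 in B16F10 neutrophils. In MC38 it was below 0 in every class measured, from -0.55 in unresolved T cells to -0.22 in CD4 T cells. No member passed 1.5-fold in either model, where 5.44% and 3.21% of all genes did. The summed share was 0.877 times the WT value in B16F10 (95% counting interval 0.874 to 0.880) and 1.07 times in MC38 (1.066 to 1.072).

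Members with large differences in B16F10 belonged to several complexes. Ndufs8 was at 187 CPM in WT and 125 in Lrrc25-/-, Atp5g3, a subunit of the ATP synthase c ring, at 764 and 551, and Cox5a, the subunit 5a of complex IV, at 1003 and 752 CPM. Their log2 folds were -0.58, -0.47 and -0.41, within a range from -0.58 to 0.43 over all measured members. In MC38 the log2 folds ran from -0.34 to 0.47. Cox8a, the broadly expressed isoform of complex IV subunit 8, was at 754 CPM in WT and 1043 in Lrrc25-/-, and Sdhb at 124 and 161 CPM. Cox8a was lower in Lrrc25-/- in B16F10 (1301 and 1117 CPM) and higher in MC38.

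**Figure D3:**
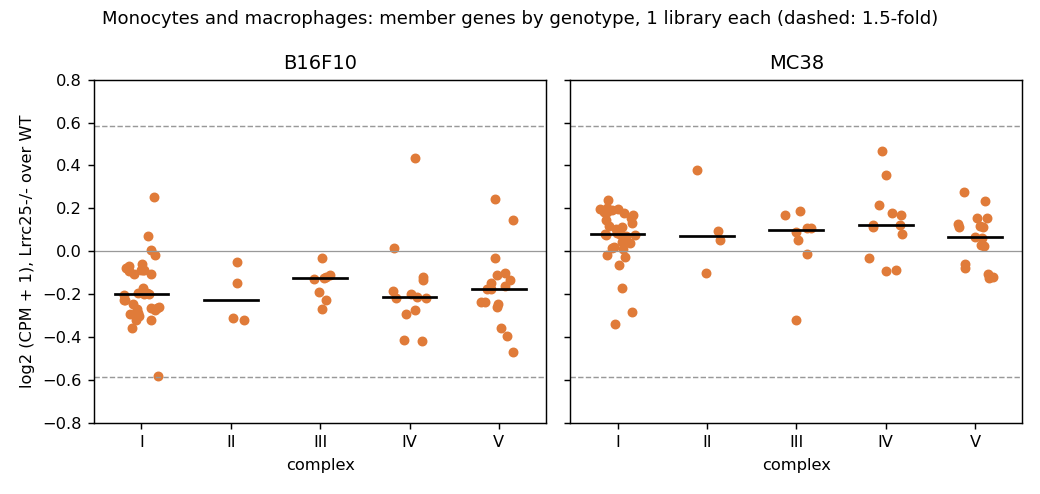
Log2 fold of Lrrc25-/- over WT (vertical axis, after adding 1 CPM) for each measured member in monocytes and macrophages, by complex, in B16F10 (left) and MC38 (right); each point is 1 gene in 1 library per genotype, black lines are medians and dashed lines mark 1.5-fold. The B16F10 points have a median of -0.20 and the MC38 points a median of 0.09, and none crosses a dashed line.

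The shares of monocytes and macrophages called cycling, Arg1 or Cxcl9 also differed between the libraries of the 2 genotypes. Cells with 3 or more cell cycle genes detected were 46.0% and 31.1% of the class in WT and Lrrc25-/- B16F10, and 21.0% and 22.8% in MC38. Without them the median log2 fold of the members was -0.20 in B16F10 and 0.09 in MC38. The Arg1 state made up 13.1% of the class in WT B16F10 against 25.8% in Lrrc25-/- B16F10, while in MC38 its share was 39.4% in WT against 20.4% in Lrrc25-/-. Cells of the Cxcl9 state made up 5.89%, 6.17%, 7.47% and 13.4% in WT B16F10, Lrrc25-/- B16F10, WT MC38 and Lrrc25-/- MC38. The melanoma marker sum in B16F10 was also lower in Lrrc25-/-. Over all kept cells the median depth was 9906 UMIs in WT B16F10, 5520 in Lrrc25-/- B16F10, 4391 in WT MC38 and 5541 in Lrrc25-/- MC38. The cycling and state calls need detected genes or UMIs, so the shares can move with depth, and its part was not tested. The part of state and of melanoma RNA in the members' difference was not tested.

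The medians of CD8 T cells lay nearer 0, at -0.07 in B16F10 (51 of 75 members lower) and -0.03 in MC38 (41 of 75 lower), the latter turning to 0.07 with TMM over the 2 libraries. Over all genes measured in CD8 T cells the medians were 0.10 and -0.04, so the members lay below all genes in B16F10. No member passed 1.5-fold, where 15.5% and 8.18% of all genes did. Cox4i1 was at 1114 and 1011 CPM in WT and Lrrc25-/- B16F10, and at 513 and 594 CPM in MC38. In unresolved T cells of B16F10, 5 of 75 members were at least 1.5-fold lower and 0 higher, where 6.69% and 16% of all genes were; Sdhc, a membrane anchor of complex II, was at 93.9 and 49.1 CPM, from 58 and 65 UMIs. Cycling cells were 23.0% and 7.01% of those T cells, and with cycling cells left out 4 members were lower and 0 higher. The part of depth in these cycling shares was not tested. In MC38, 3 of 74 were lower and 0 higher (8.21% and 7.74% of all genes). In melanoma cells 0 of 76 members passed (2.45% of all genes), with log2 folds from -0.21 to 0.48. Neutrophils of B16F10 had 5 of 42 members lower and 3 higher (13.3% and 27.8% of all genes), from as few as 5 UMIs in the WT library, and those of MC38 had 7 of 20 higher and 0 lower (16% and 14.5%). In pDC of B16F10, 4 of 62 were higher and 0 lower (11.3% and 5.62%). In MC38 fibroblasts 11 of 71 were lower and 1 higher (22.3% and 17.6%), and in MC38 CD4 T cells 4 of 56 were lower and 0 higher (10.3% and 9.85%).

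Smaller classes could be fitted only when cells were named by their highest marker score, a naming chosen after the cell counts were seen. For genotype edgeR called no member in any of them, with 0.292% of all genes called in NK cells, 0.0168% in CD4 T cells, 0.182% in Treg cells, 0.388% in cDC2, 0% in migratory DC and 0% in fibroblasts. Between tumor models the members called lower were 59 of 75 in NK cells (17.5% of all genes), 70 of 75 in CD4 T cells (23.4%), 70 of 75 in Treg cells (21.8%), 68 of 76 in cDC2 (24.9%), 67 of 75 in migratory DC (21.8%) and 72 of 78 in fibroblasts (26.6%), and none was called higher. Each of these classes thus had most of its tested members lower in MC38 libraries.

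Ndufa4l2, a hypoxia-linked paralog of Ndufa4, came nearest to a genotype difference, at a level near the detection limit. Within the macrophage class it was at 5.59 CPM in WT B16F10 (131 UMIs) and 0.718 in Lrrc25-/- B16F10 (25 UMIs), and at 2.07 CPM in WT MC38 (104 UMIs) and 0.181 in Lrrc25-/- MC38 (11 UMIs). Hence both WT libraries lay above both Lrrc25-/- libraries. The log2 fold was -3.17 (SE 0.34) and the edgeR adjusted p 0.073; over the alternatives the adjusted p ran from 5.0e-15 to 0.293, with calls by DESeq2, without the filter on low counts, and with stricter cells. The UMIs came from few cells: 54, 23, 66 and 10 cells held any, and 1 cell of WT B16F10 held 13. In cells without a UMI of any fibroblast or pericyte marker, a check added after the data were seen, the levels were 5.08, 0.535, 2.05 and 0.102 CPM in WT B16F10, Lrrc25-/- B16F10, WT MC38 and Lrrc25-/- MC38.

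Within monocytes and macrophages, few members passed the test between the Arg1 state, a gene tied to hypoxia and tissue repair, and the Cxcl9 state, which is induced by interferon. Each state was taken as cells with at least 2 UMIs of 1 gene and none of the other. Of 80 members tested across the 4 libraries, 3 were higher and 3 lower in Arg1 cells, where 7.66% and 6.57% of all genes were. Ndufa4 was lower in Arg1 cells (log2 fold -0.49; edgeR adjusted p = 0.012), at 438 against 706 CPM in WT B16F10, 346 against 579 in Lrrc25-/- B16F10, 79.1 against 109 in WT MC38 and 67.4 against 115 in Lrrc25-/- MC38. Sdhb (-0.49) and Cox5a (-0.36) were also lower, and all 3 were lower in each of the 4 libraries.

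The 3 members called higher in Arg1 cells were Cox7a1, an isoform of complex IV subunit 7a known from muscle (1.09), Ndufv3, an accessory subunit of complex I (0.36), and Ndufa4l2 (2.42; edgeR adjusted p = 0.048). Cox7a1 was at 29.4 against 15.6 CPM in WT B16F10, 35.8 against 16.9 in Lrrc25-/- B16F10, 13.9 against 6.79 in WT MC38 and 10.9 against 6.95 in Lrrc25-/- MC38. Ndufa4l2 was at 25.1 against 1.30 CPM in WT B16F10 and 3.43 against 0.522 in WT MC38, but at 1.10 against 2.06 in Lrrc25-/- B16F10 and, from 4 UMIs and 1 UMI, 0.282 against 0.122 in Lrrc25-/- MC38. Leaving out WT B16F10, WT MC38 or Lrrc25-/- MC38 left 1 member called higher (4.02%, 4.66% and 6.45% of all genes). The glycolysis and hypoxia list had 15 of 16 genes higher and none lower in Arg1 cells, and the cell cycle list had 14 of 16 lower. With library totals 1 member was called higher and 21 lower, where 5.06% and 12.5% of all genes were.

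Cycling cells carried more of many members than cells with no cell cycle gene detected. Of 80 members tested in monocytes and macrophages 29 were higher and 2 lower (16.5% and 10.1% of all genes), and all 29 were higher in each of the 4 libraries. Cox5a is one of the examples: it was at 1127 against 703 CPM in WT B16F10, 898 against 556 in Lrrc25-/- B16F10, 560 against 430 in WT MC38 and 599 against 470 in Lrrc25-/- MC38. Atp5g3 rose by 0.53 on the log2 scale and Ndufs7, an iron-sulfur subunit of complex I, by 0.54. Leaving out 1 library lowered the count of higher members to between 13 and 20; it was 14 without WT B16F10 (13.5% of all genes), 13 without WT MC38 (10.2%) and 14 without Lrrc25-/- MC38 (8.49%), nearer the share of all genes than with 4 libraries. Library totals gave 52 higher (22.1% of all genes).

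Among CD8 T cells 37 of 75 members were higher in cycling cells and 2 lower, where 13.3% and 11% of all genes were. Ndufc2, a complex I subunit, had the largest rise (log2 fold 1.00, SE 0.16), at 307 against 106 CPM in WT B16F10, 282 against 126 in Lrrc25-/- B16F10, 175 against 110 in WT MC38 and 188 against 104 in Lrrc25-/- MC38. Cox7a2l fell by 0.47, at 369 against 517, 311 against 490, 251 against 323 and 260 against 329 CPM in the same order. Cycling cells were deeper: their median was 9316, 10892, 6445 and 7152 UMIs, against 2573.5, 2199, 3149.5 and 3276 UMIs in non-cycling CD8 T cells. Because detection of 3 genes needs depth, the part of depth in these differences was not tested. Of the 13 mitochondrial DNA-encoded subunits 0 were higher in cycling cells of either class, and 1 was lower in CD8 T cells.

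Against monocytes and macrophages of the same libraries, neutrophils had lower member levels, while the counts for T cells moved with scaling. For CD8 T cells 36 of 80 members were lower and 1 higher (27.7% and 24% of all genes), with a median log2 fold of -0.28, and 24 of the 36 were lower in each of the 4 libraries. The 1 higher was Uqcrh, the hinge subunit of complex III, at 888, 858, 614 and 648 CPM in CD8 T cells against 481, 398, 391 and 421 CPM. Without Lrrc25-/- MC38, 21 were lower (22.5% of all genes). Library totals gave 17 lower and 8 higher in CD8 T cells, where 21.9% and 32.8% of all genes were, so the share of members called lower was then near that of all genes, with the median of all genes at 0.20 in place of -0.05. In unresolved T cells 59 of 80 were lower and 0 higher (26.6% and 18.1% of all genes), and 22 and 3 with library totals (18% and 28%); 46 of the 59 were lower in each of the 4 libraries. Under highest-score naming, members lower and higher than in monocytes and macrophages numbered 25 and 0 of 80 in NK cells (22.3% and 14.1% of all genes), 50 and 0 in CD4 T cells (20.2% and 11.5%) and 40 and 0 in Treg cells (22.7% and 13.5%). They numbered 14 and 2 in cDC2 (15.8% and 8.68%), 58 and 0 in migratory DC (19.2% and 10.7%) and 35 and 1 in fibroblasts (20.3% and 14.1%).

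In neutrophils 73 of 80 members were lower and 0 higher (26.5% and 12.8% of all genes), and 72 of the 73 were lower in each of the 4 libraries. The members' median log2 fold was -1.81, against -0.74 for all genes tested; under highest-score naming it was -0.93, against -0.28. Cox4i1 was at 752, 600, 217 and 244 CPM in neutrophils, against 1393, 1137, 530 and 614 CPM in monocytes and macrophages. Atp5g1, another c ring gene, was at 123, 87.9, 15.9 and 38.7 CPM against 519, 394, 246 and 266 CPM. Neutrophils held 1087.5 to 1366 median UMIs per cell, and their mitochondrial DNA-encoded share ranged from 1.27% to 3.65%. The markers of monocytes and macrophages summed to 895 to 2187 CPM in neutrophils, and their part in the levels was not tested.

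**Figure D4:**
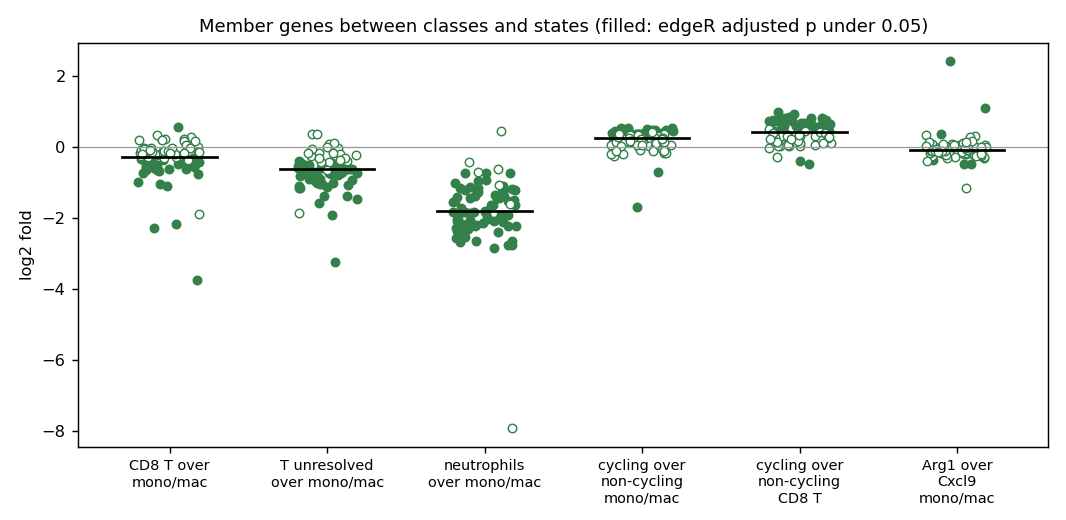
Log2 fold (vertical axis) of each member tested for 3 classes over monocytes and macrophages (mono/mac), cycling over non-cycling cells in 2 classes, and Arg1 over Cxcl9 cells; filled points passed edgeR's test, open points did not, and black lines are medians. Neutrophils lie lowest, with a median of -1.81; the open point far below them is Ndufa4l2, which had no UMI in neutrophils, so its fold is no estimate.

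Melanoma cells stood above monocytes and macrophages of the same libraries. Of 75 members measured, 49 were at least 1.5-fold higher in both B16F10 libraries and 0 were lower in both, where 36.3% and 28.1% of all genes were; no test was made. Ndufa4 was at 2576 and 2410 CPM in melanoma cells, against 663 and 496 CPM. Ndufb9, a complex I subunit, was at 936 and 897 CPM, against 288 and 239. Sdha showed little difference, at 82.1 and 85.9 CPM against 76.1 and 73.4. MC38 tumor cells could be compared only when cells were named by their highest marker score, and 3 of 8 of their markers reached 20 CPM in the gated cells of WT MC38. There 9 of 75 members were higher and 10 lower in both MC38 libraries (38.2% and 23.8% of all genes), and Ndufa4 was at 253 and 216 CPM against 95.4 and 93.8.

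Paired isoforms of complex IV divided the classes. Cox6a2, the heart and muscle isoform of subunit 6a, was at 2711 and 2261 CPM in pDC of WT and Lrrc25-/- B16F10, and at 1850 and 1352 CPM in the 4 and 13 pDC of MC38, from 442, 736, 25 and 104 UMIs. The macrophage class had it at 7.47, 6.23, 2.41 and 2.89 CPM. Cox6a2 gave 89.7%, 87.4%, 78.1% and 88.9% of the UMIs of Cox6a1 and Cox6a2 in pDC, and 0.727% to 1.22% in monocytes and macrophages. The common isoform, Cox6a1, was read in the B16F10 pDC at 313 and 326 CPM, below its 605 and 527 CPM in the macrophage class. Among the 76 members measured in pDC, Cox6a2 and Cox7a2l were at least 1.5-fold higher than in monocytes and macrophages in both B16F10 libraries and 15 were lower, where 33.9% and 21.3% of all genes were. Cox6a2 is not among the 7 markers that gated pDC.

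Cox4i2, the isoform of subunit 4 known from lung and oxygen-sensing cells, was highest in pericytes, the cells that wrap small vessels, at 630 and 622 CPM in the 6 and 4 gated cells of WT and Lrrc25-/- B16F10. It gave 34 UMIs beside 82 of Cox4i1 in the WT library and 17 beside 51 in the Lrrc25-/- library, and 0.453% to 1.06% of the UMIs of both isoforms in monocytes and macrophages. Ndufa4l2 was at 1280 and 1390 CPM in the same pericytes, where Ndufa4 was at 74.2 and 36.6 CPM. In fibroblasts Ndufa4l2 was at 771 and 446 CPM in the 28 and 38 cells of B16F10, and at 41.5 and 41.9 CPM in the 60 and 53 cells of MC38. With so few cells these values describe the sampled cells and carry no test.

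**Figure D5:**
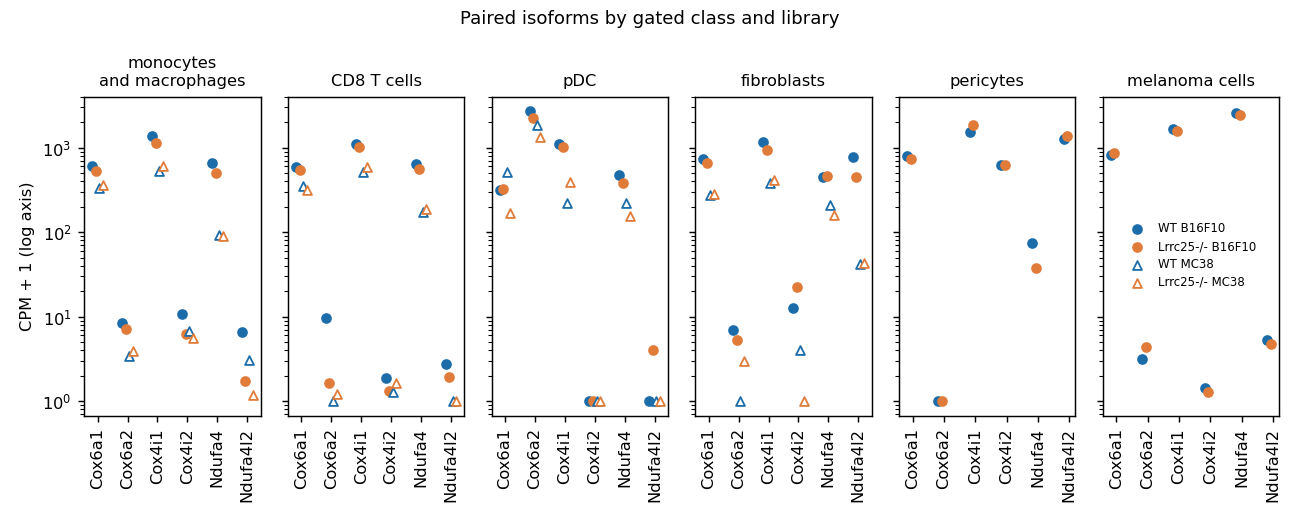
CPM plus 1 (vertical, log axis) of 3 isoform pairs in 6 gated classes, with 1 point per library; filled circles are B16F10, open triangles MC38, blue WT and orange Lrrc25-/-. Cox6a2 lies above Cox6a1 in pDC, and Ndufa4l2 lies above Ndufa4 in pericytes, which rest on 6 and 4 cells.

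A few members were at or near 0. Ndufa13, a complex I subunit, had 0 UMIs in all barcodes; on mm10 it lies at chr8:69894180-69902558 on the minus strand, inside the span of Yjefn3 on the same strand (chr8:69887788-69902712), and Yjefn3 had 1662 UMIs. Whether reads of Ndufa13 were left out because of that overlap was not tested. Cox8c had 0 UMIs, Cox7b2 had 3 and Cox8b had 8 over all barcodes. Cox6b2, an isoform known from testis, was at 1.29 to 2.52 CPM in monocytes and macrophages.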

How the data were processed

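Raw UMI counts per gene and barcode, 1 sparse matrix per library, are used as the authors deposited them, unnormalized; the submitters' processing notes name mm10, and the counting software is not given in the sources used here. Barcodes with at least 300 genes, 500 UMIs and at most 20% mitochondrial UMIs were kept. A cell took the class with the largest share of its markers detected, with at least 3 detected and a share at least 2 times the next list's; all others, doublets included, were left out, and no doublet caller was run. UMIs were summed per class and library and divided by the library total of the class (CPM). Gene positions are from GENCODE M21.

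Sums were tested with edgeR 4.0.16 (R 4.3.3; TMM, filterByExpr, quasi-likelihood, Benjamini-Hochberg adjustment over all genes tested, threshold 0.05). Genotype and tumor model were fitted together over 4 libraries, with 1 residual degree of freedom; classes and states were fitted with a term per library, with 3. Within a tumor model, values have no test, and 1.5-fold after adding 1 CPM is a size rule; intervals (95%, exact) cover counting error only. Each library is a pool of 3 mice and each group has 1 pool, so no spread between pools of a group was measured. In the fit of genotype and tumor model, p-values of both terms rest on how far the genotype difference varied between tumor models. For classes and states p-values rest on how far the difference varied between libraries. In all fits edgeR draws each gene's estimate of that spread toward a trend over all genes. This weighs most with 1 residual degree of freedom. On simulated counts with gene-by-gene dispersions 19 of 158 calls for genotype in monocytes and macrophages, and 36 of 160 for CD8 T cells against them, were of unchanged genes, above the nominal rate; with dispersions on the trend they were 8 of 146 and 3 of 127.

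Named genes were the members past a threshold (up to 5 per direction for genotype, up to 4 largest and smallest otherwise), 11 core subunits, the paired isoforms, and up to 3 per direction of the other lists; others were chosen after their values were seen. The members and lists were chosen with earlier results of these data known. NK, CD4 T, Treg, cDC2, migratory DC and fibroblast fits were made only under highest-score naming, a choice made after the cell counts were seen. Alternatives covered scaling, filters, DESeq2 1.42.0, class naming, cell filters, pseudocount, cycling cells and leaving out each library.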

Additional observations from a re-analysis of the deposited data

Results flagged for a closer look

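In monocytes and macrophages the summed share of the member genes in Lrrc25-/- was 0.877 times that in WT in B16F10 tumors and 1.07 times in MC38 tumors, so the ratio lay on opposite sides of 1 in the 2 tumor models. The share of ribosomal protein genes in these cells moved likewise, from 20.2% in WT to 18.2% in Lrrc25-/- B16F10 and from 14.6% to 15.3% in MC38. In neutrophils the members' ratios were 0.878 in B16F10 and 1.32 in MC38. Each ratio compares 1 library per genotype, its counting interval excludes 1, and the difference between tumor models was not tested, since 4 libraries leave no residual degree of freedom for it. Under highest-score naming the neutrophil shares were 1.78% and 1.67% in WT and Lrrc25-/- B16F10 and 1.32% and 1.12% in MC38, so the MC38 ratio then lay below 1, at 0.851.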

How the results depend on the processing

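Between tumor models, classes and states the members' median log2 fold kept its sign under every alternative run, while several small genotype medians changed sign. In the fits over both tumor models the median moved from -0.06 to 0.0058 in CD8 T cells without the low-count filter, and in neutrophils from 0.06 to -0.019 with DESeq2 and -0.14 under highest-score naming. Within a tumor model, TMM over the 2 libraries moved it from -0.18 to 0.16 in B16F10 neutrophils, and in MC38 from -0.09 to 0.024 in CD4 T cells, from -0.03 to 0.069 in CD8 T cells and from -0.04 to 0.083 in unresolved T cells. With cycling cells left out it was 0.11 in MC38 CD4 T cells, 0.054 in unresolved T cells and 0.11 in fibroblasts (-0.16). Under highest-score naming it was 0.064 in those fibroblasts, 0.0032 in MC38 CD8 T cells and -0.25 in MC38 neutrophils (0.32), and with CPM of 5 and 10 UMIs 0.0025 in B16F10 pDC (-0.0091). Ratios of summed member shares between genotypes crossed 1 in MC38: neutrophils went from 1.32 to 0.851 under highest-score naming, fibroblasts from 0.900 to 1.03 under that naming and 1.003 with cycling cells left out, CD4 T cells from 0.938 to 1.02 and unresolved T cells from 0.995 to 1.05 with cycling cells left out, the latter also to 1.0 with mitochondrial and ribosomal genes left out. With mitochondrial and ribosomal genes left out, highest-score naming and cycling cells left out, in that order, the ratio in CD8 T cells was 1.01, 1.008 and 0.961 in MC38 (0.993), thus above 1 in the first 2, and 0.9245, 0.942 and 0.987 in B16F10 (0.960). In monocytes and macrophages it was 0.858, 0.869 and 0.870 in B16F10 (0.877) and 1.076, 1.074 and 1.064 in MC38 (1.07). The cause of these changes was not tested. The median log2 fold of the members between genotypes in B16F10 monocytes and macrophages stayed between -0.23 and -0.19 over 8 alternatives; in MC38 it ran from 0.08 to 0.15, the latter with TMM over the 2 libraries. Counts of members past 1.5-fold there were 0, and 1 lower in B16F10 with TMM over the 2 libraries, with mitochondrial and ribosomal genes left out, with the mean of per-cell CPM and with cycling cells left out, and 2 with CPM of 5 and 10 UMIs. For CD8 T cells in B16F10 they were 1 higher with the mean of per-cell CPM, 1 lower with highest-score naming and with CPM of 5 and 10 UMIs, and 3 higher and 1 lower with cycling cells left out; in MC38 1 was lower with cycling cells left out.

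In the genotype fits 1 member was called lower in monocytes and macrophages without the low-count filter, with DESeq2 and with stricter cells (Ndufa4l2 in each), and 1 in CD8 T cells under highest-score naming (Cox6a2, log2 fold -2.82, edgeR adjusted p = 0.0097). In gated CD8 T cells Cox6a2 had 10, 2, 0 and 1 UMIs in WT B16F10, Lrrc25-/- B16F10, WT MC38 and Lrrc25-/- MC38. It was too low there for the main fit, and without the low-count filter its edgeR adjusted p was 0.69. Under highest-score naming edgeR called 0 members for genotype in NK cells, CD4 T cells, Treg cells, cDC2, migratory DC and fibroblasts. In that order 3, 1, 0, 0, 2 and 1 members had an unadjusted p under 0.05. Over all genes 477 of 6853, 421 of 5954, 370 of 7146, 253 of 5666, 446 of 7146 and 307 of 11011 had. For tumor model 59 of 75, 70 of 75, 70 of 75, 68 of 76, 67 of 75 and 72 of 78 members were lower. In neutrophils the 38 lower between tumor models became 12 with library totals, 2 without the low-count filter (0.489% of all genes) and 13 with DESeq2.

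Against monocytes and macrophages, CD8 T cells had 8 members higher and 17 lower with library totals, and 3 higher with DESeq2; unresolved T cells had 3 and 22, and 1 higher with DESeq2; neutrophils had 1 higher under highest-score naming. For cycling monocytes and macrophages library totals gave 52 higher and 1 lower and DESeq2 gave 7 lower; for cycling CD8 T cells 0 were lower without the filter. For Arg1 against Cxcl9, library totals gave 1 higher and 21 lower. Leaving out 1 library at a time gave 1 to 2 higher and 21 to 25 lower in CD8 T cells against monocytes and macrophages, 0 to 1 and 44 to 56 in unresolved T cells, and 0 and 66 to 69 in neutrophils; 13 to 20 higher and 0 to 2 lower for cycling monocytes and macrophages, 25 to 43 and 0 to 1 for cycling CD8 T cells, and 1 to 2 and 2 for Arg1 against Cxcl9. Leaving out a library from the genotype and tumor model fits leaves no residual degrees of freedom, so no such test was made. No paired analysis was possible because the labels carry no replicate numbers and each group is 1 pooled library; the class and state fits have a term per library. Depth limits the neutrophils, at 1087.5 to 1366 median UMIs per cell, and the number of cells limits the pericytes and the pDC of MC38, at 13 cells or fewer; members under 20 CPM were not described by fold within a tumor model.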
